A study of Mus musculus with 24 samples.

Results

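Klf1, Epor and 6 genes of the red cell surface and membrane skeleton were examined in RNA sequencing of mouse fetal liver cells. The 8 genes were Klf1, Epor, Slc4a1, Sptb, Epb42, Ank1, Rhag and Tfrc. They were chosen by name and found in the count table by their Ensembl mouse gene identifiers, 8 of 47069 identifiers listed. The study changed the amount of miR-125b, a microRNA encoded on human chromosome 21, in cells edited toward GATA1s, a truncated GATA1 protein that lacks its amino-terminal part. GATA1 is the master transcription factor of red cells and megakaryocytes. Its title names the transcription factor ARID3A as the target.

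All 24 libraries came from cells of embryos at E12.5-13.5 of a mouse strain on the B6J.129(Cg) background with a CAG-cas9*,-EGFP transgene at Gt(ROSA)26Sor, so that Cas9 and EGFP are driven by the ubiquitous CAG promoter. Every group carried sgGata1, a guide RNA against Gata1, so that no group was without the guide. A second transgene was either miR-125b or the control miR-ctrl. Cells received doxycycline, which controls tetracycline-regulated transgenes, at 1 µg/mL for 48 h (day 2), for 10 days (day 10) or for 13 days (day 13). In the last pair of groups doxycycline was withdrawn on day 10 and cells were taken on day 13. The 4 conditions in the 2 arms made 8 groups of 3 libraries, numbered 1 to 3 in each group. The labels do not say whether the libraries of a group came from separate cultures or embryos, so p-values measure the spread between these libraries, which may be technical.

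KLF1 is a zinc finger transcription factor that binds CACCC-type motifs and switches on globin, membrane and heme genes in red cell precursors. It favours the erythroid over the megakaryocytic fate of their shared progenitor. EPOR is the receptor through which erythropoietin keeps erythroid progenitors alive, and it signals through JAK2 and STAT5. The red cell membrane rests on a spectrin network that ankyrin, encoded by Ank1, ties to the anion exchanger band 3, encoded by Slc4a1. Sptb encodes beta-spectrin, Epb42 the ankyrin- and band 3-associated protein 4.2, and Rhag the Rh-associated glycoprotein, a partner of the Rh proteins in the membrane. Tfrc encodes transferrin receptor 1, which imports iron, and is used by all dividing cells as well as by erythroblasts.

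Libraries held 14694900 to 23755245 counts, and values below are TMM-normalised CPM, counts scaled to a common library total, unless per-length values (RPKM) are named. Megakaryocyte markers were high, with a summed level of 10 markers of 2860 to 7470 CPM, and all 10 passed the filter on low counts. The summed level of 7 erythroid markers, among them Hba-a1, Hba-a2, Hbb-bs, Hbb-bt and Alas2, was 84.2 to 315 CPM. The 8 granulocyte, mast cell and basophil markers summed to 53.5 to 279 CPM, and the 3 endothelial markers to 1.71 to 22.8 CPM. Macrophage markers summed to at most 3.08 CPM, hepatocyte markers to at most 4.56 CPM with Ttr at 0 in all libraries, and lymphoid markers to at most 0.537 CPM. Gata1 had group means of 261 to 375 CPM and passed the test in none of the 4 miR-125b comparisons, where its lowest adjusted p was 0.775 (edgeR). RNA counts do not show the edit, so this does not check the guide.

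Arid3a was used as a check of the treatment labels. Its mean was 31.8 ± 1.7 CPM (SD, n = 3) with miR-125b and 58.5 ± 11 CPM in control at day 10, a log2 fold change of -0.88 (edgeR quasi-likelihood, adjusted p = 0.023). In the miR-125b libraries labelled day 13 with continued doxycycline it stood at 52.2 ± 6.15 CPM against 61.0 ± 11.2 CPM in control (log2 fold change -0.22, adjusted p = 0.999). In those labelled withdrawal it stood at 31.2 ± 4.45 CPM against 69.5 ± 6.2 CPM (-1.15, adjusted p = 0.00435). In the miR-125b arm it was 0.71 higher on the log2 scale at labelled day 13 than at day 10 (adjusted p = 0.0276). The treatment labels would give the opposite pattern for the named target, low with continued doxycycline. Compared directly, labelled withdrawal against labelled continued was -0.74 in the miR-125b arm (adjusted p = 0.372 with edgeR, 0.0291 with DESeq2), and the difference of that change between arms was -0.93 (adjusted p = 1.0 with either). At day 2 Arid3a differed by -0.81 between arms (adjusted p = 0.632 with edgeR, 0.0131 with DESeq2). Day 13 libraries are for this reason called by their labels throughout.

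Sequences that bear on the comparisons are the mature miRNA and its seed matches in the members. The mature miRNA is printed with its seed (bases 2 to 8) in capitals, from RefSeq (GRCm38.p6).

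mmu-miR-125b-5p: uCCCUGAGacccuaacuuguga

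A messenger RNA that pairs with this seed holds CTCAGGG. The word occurred in the longest annotated 3' UTR of 4 of the 8 members, against 15.9% of the 11665 tested genes with such a UTR. Klf1 held 1 match in 352 bases, Ank1 2 in 2243, Sptb 2 in 2737 and Tfrc 1 in 2458. No match was found in the 3' UTRs of Epor (162 bases), Slc4a1 (1463), Rhag (972) and Epb42 (1560). The matches are shown with the bases on either side, read along the messenger RNA with the 7 matching bases in capitals. An A after the match extends it to 8 bases, which was the case in 1 site each of Klf1, Ank1 and Sptb. A match is a description of the letters, and no site was tested for binding. The mature miRNA itself was not analysed here.

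Klf1 site at chr8:84905084-84905090 (GRCm38, + strand): cctcacatgtcCTCAGGGagccccacaca
Ank1 first site at chr8:23149623-23149629 (+ strand): ttctatctagaCTCAGGGccaggccagga
Ank1 second site at chr8:23149677-23149683 (+ strand): gccttggagccCTCAGGGaagagccttaa
Sptb first site at chr12:76582619-76582625 (- strand): aggattctctcCTCAGGGctagtatgtcc
Sptb second site at chr12:76580662-76580668 (- strand): tcttggacaagCTCAGGGaggacacagaa
Tfrc site at chr16:32632273-32632279 (+ strand): gtcactaggctCTCAGGGtcttggcacca

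Levels differed widely between the members. Per length, Tfrc was the most abundant, with a median over the 24 libraries of 55.3 RPKM. Epor (24.4 RPKM) and Klf1 (16.6 RPKM) came next, followed by Rhag (4.16 RPKM) and Sptb (2.01 RPKM). Epb42 (0.188 RPKM) was low, with a median of 18 counts. Ank1 (0.0221 RPKM), with a median of 5 counts, was near the limit of detection. Slc4a1 had 0 counts in all 24 libraries, although band 3 is a major protein of the mature red cell membrane. A count of 0 allows up to 3 counts, or 0.129 to 0.2 CPM per library, for counting error only. Of the 8 members, 7 passed the filter on low counts and Slc4a1 did not. The erythropoietin receptor gene and the erythroid transcription factor gene Klf1 were thus measured in libraries where band 3 was not detected.

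**Figure D1:**
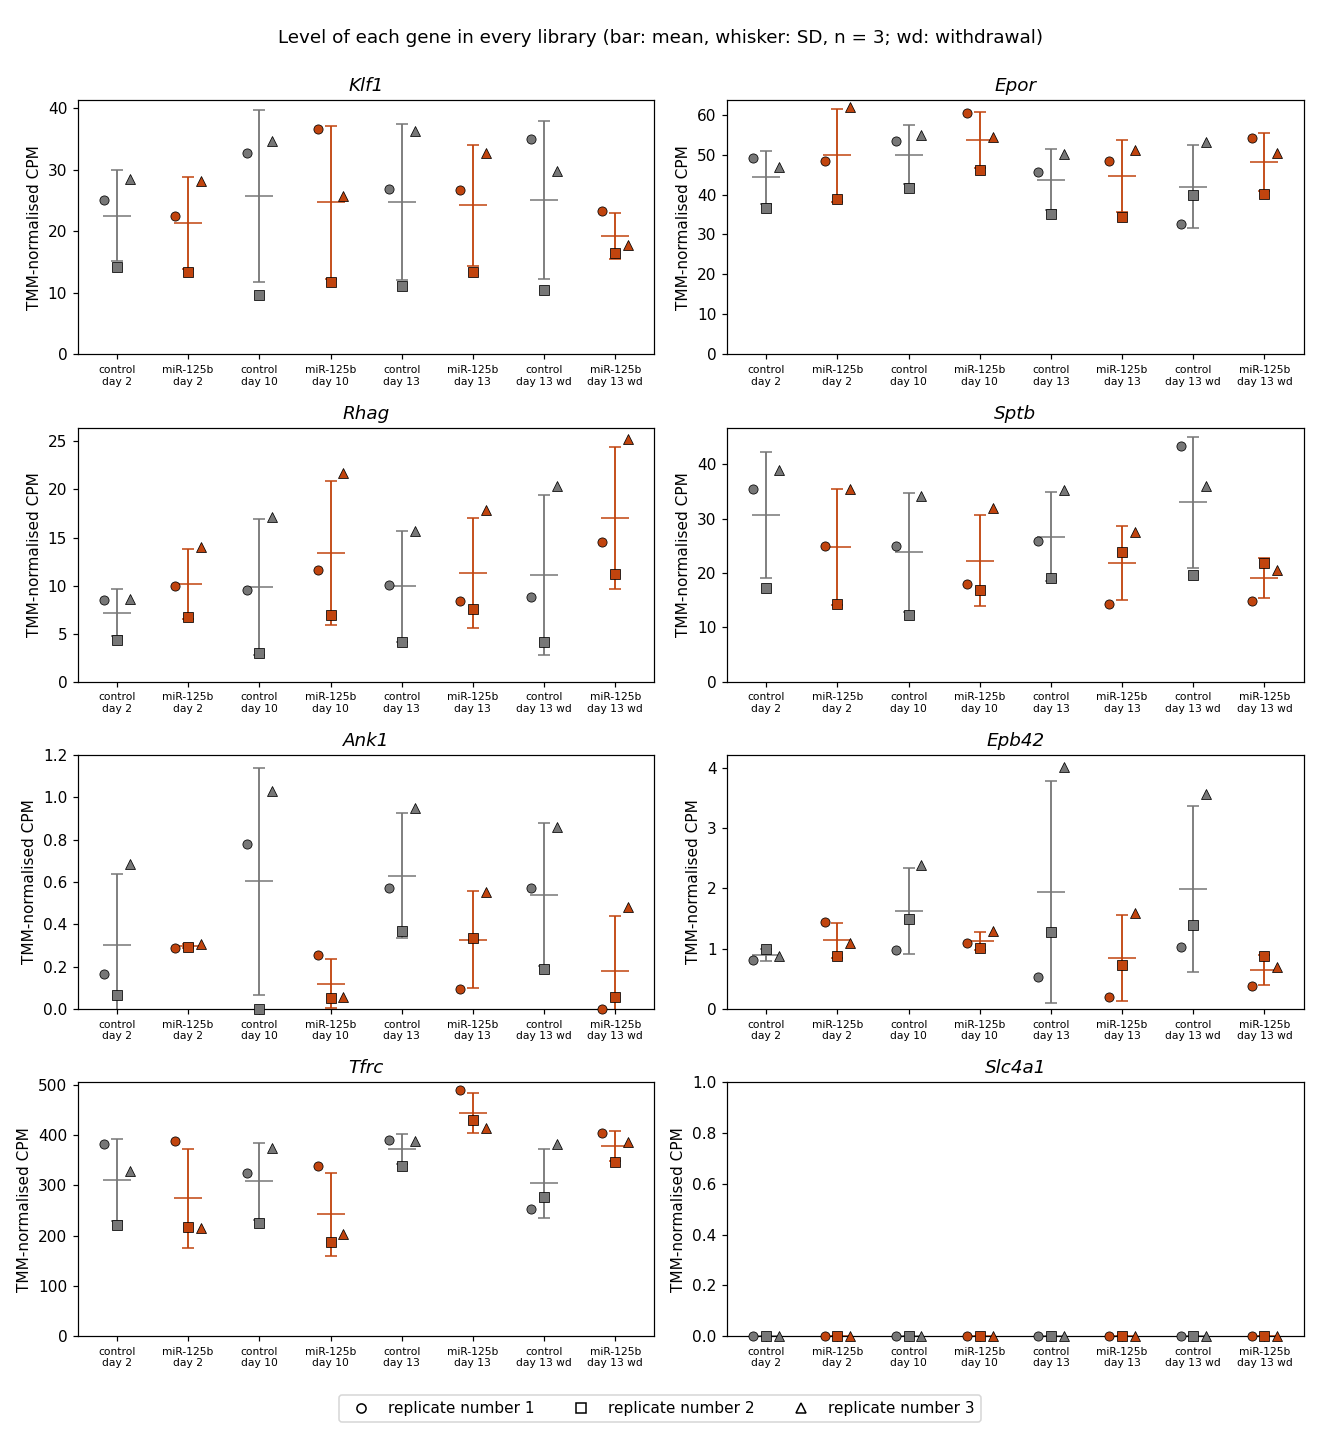
TMM-normalised CPM of the 8 genes in each of the 24 libraries, by group; circles, squares and triangles are replicate numbers 1, 2 and 3, bars are means and whiskers SDs (n = 3), and wd is the label withdrawal. Squares lie lowest in all 8 groups for Klf1 and Rhag, and Slc4a1 is at 0 throughout.

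The transcription factor gene Klf1 (ENSMUSG00000054191, chr8:84901928-84905291, GRCm38, + strand) ranged from 9.6 to 36.5 CPM. At day 2 the libraries numbered 1, 2 and 3 gave 25.0, 14.2 and 28.4 CPM in control and 22.4, 13.3 and 28.2 CPM with miR-125b. At day 10 they gave 32.7, 9.6 and 34.7 CPM in control and 36.5, 11.7 and 25.7 CPM with miR-125b. In each of these groups the library numbered 2 was lowest and the arms overlapped. Libraries labelled day 13 continued gave 26.8, 11.1 and 36.3 CPM in control and 26.6, 13.4 and 32.6 CPM with miR-125b. Those labelled withdrawal gave 34.9, 10.5 and 29.7 CPM in control and 23.3, 16.4 and 17.8 CPM with miR-125b. The group means ran from 25.7 CPM (control, day 10) down to 19.2 CPM (miR-125b labelled withdrawal), and no neighbours in that order stood apart. No miR-125b comparison of Klf1 passed the test, with log2 fold changes of -0.08 at day 2, -0.06 at day 10, -0.03 at labelled day 13 and -0.38 at labelled withdrawal. The SE was 0.55 in each, and the lowest adjusted p was 0.909 (edgeR). With the replicate number as a block the SE was 0.24 in each. The lowest adjusted p of Klf1 was then 0.73 (edgeR), at labelled withdrawal (-0.21).

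Epor (ENSMUSG00000006235, chr9:21958897-21963506, - strand), the erythropoietin receptor gene, was the steadiest member, from 32.6 to 62.0 CPM. Control and miR-125b libraries stood at 49.2, 36.7 and 47.0 CPM and at 48.4, 38.9 and 62.0 CPM at day 2. At day 10 they stood at 53.4, 41.6 and 55.0 CPM and at 60.3, 46.2 and 54.4 CPM. The library numbered 2 was again the lowest in these 4 groups. Values of 45.7, 35.2 and 50.1 CPM in control and 48.5, 34.4 and 51.1 CPM with miR-125b were found at labelled day 13. At labelled withdrawal they were 32.6, 39.8 and 53.2 CPM in control and 54.1, 40.1 and 50.4 CPM with miR-125b. The last control group was the exception, since its library numbered 1 was lowest. Epor log2 fold changes with miR-125b were 0.17, 0.10, 0.03 and 0.20 in the same order of conditions (SE 0.21 in each), and in each condition 2 of 3 same-numbered libraries were higher with miR-125b. The lowest adjusted p was 0.838 (edgeR), and the groups overlapped in each comparison. Fitted with the replicate block, Epor had an SE of 0.12 in each and a lowest adjusted p of 0.468 (edgeR).

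Rhag (ENSMUSG00000023926, chr17:40811126-40840754, + strand) was the membrane gene most often higher with miR-125b. Day 2 gave 8.51, 4.34 and 8.64 CPM in control and 9.95, 6.71 and 14.0 CPM with miR-125b. Day 10 gave 9.53, 2.95 and 17.1 CPM in control and 11.6, 6.95 and 21.7 CPM with miR-125b. Within a replicate number the miR-125b library was the higher of each of these pairs, but the groups overlapped. Labelled day 13 gave 10.1, 4.1 and 15.7 CPM in control and 8.44, 7.55 and 17.9 CPM with miR-125b. Labelled withdrawal gave 8.77, 4.16 and 20.4 CPM in control and 14.5, 11.2 and 25.3 CPM with miR-125b. In all, 11 of 12 same-numbered pairs were higher with miR-125b, the exception being number 1 at labelled day 13. The 12 pairs reuse the numbers 1 to 3, whose libraries vary together across groups, so they are not independent. The log2 fold changes were 0.50 ± 0.65 (SE), 0.44 ± 0.65, 0.18 ± 0.65 and 0.61 ± 0.64, and the lowest adjusted p was 0.794 (edgeR). At day 2 the value was 0.21 without the miR-125b library numbered 3 and 0.24 without the control library numbered 2. With the replicate number as a block the adjusted p was 0.18 at day 10 and 0.113 at labelled withdrawal, so Rhag passed the test under neither fit.

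Sptb (ENSMUSG00000021061, chr12:76580488-76710547, - strand), the beta-spectrin gene, overlaps the small RNA gene Gm24010 and touches Plekhg3, and ranged from 12.2 to 43.3 CPM. Day 2 libraries stood at 35.5, 17.3 and 39.0 CPM in control and 24.9, 14.3 and 35.4 CPM with miR-125b. Day 10 libraries stood at 25.0, 12.2 and 34.2 CPM and at 18, 16.9 and 32 CPM. These groups overlapped, and number 3 was the highest in all 4. Under the day 13 label the values were 25.8, 19.1 and 35.3 CPM in control and 14.3, 23.9 and 27.6 CPM with miR-125b. Under the withdrawal label they were 43.3, 19.7 and 36.0 CPM in control and 14.9, 21.9 and 20.6 CPM with miR-125b. Sptb was therefore lower in 2 of 3 same-numbered pairs at labelled withdrawal and higher in that numbered 2. Its log2 fold changes were -0.31, -0.09, -0.29 and -0.79, with SEs of 0.42 and a lowest adjusted p of 0.644 (edgeR). Without the 8 libraries numbered 2 the last of these was -1.15 ± 0.35 (SE), adjusted p = 0.333. Fitted with the replicate block it was -0.715 ± 0.307 (SE), adjusted p = 0.265 (edgeR).

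Epb42 (ENSMUSG00000023216, chr2:121017891-121037072, - strand) and Ank1 (ENSMUSG00000031543, chr8:22974844-23150497, + strand), which join the spectrin network to the membrane, rested on few reads. Epb42 had 4 to 83 counts per library and Ank1 0 to 20, with 2 libraries at 0 for Ank1. Epb42 stood at 0.525, 1.28 and 4.02 CPM in control and at 0.192, 0.727 and 1.6 CPM with miR-125b at labelled day 13. At labelled withdrawal it stood at 1.02, 1.39 and 3.57 CPM in control and at 0.379, 0.875 and 0.693 CPM with miR-125b. The last pair of groups did not overlap, as was true of 11.4% of the 13419 tested genes in that comparison. Its log2 fold change there was -1.62 ± 0.67 (SE), with an unadjusted p of 0.0249 and an adjusted p of 0.495 (edgeR). Fitted with the replicate block it was -1.51 ± 0.508 (SE), with an unadjusted p of 0.0073 and an adjusted p of 0.139 (edgeR). At day 2 and day 10 Epb42 ranged from 0.813 to 1.45 CPM and from 0.972 to 2.39 CPM, with the arms overlapping and log2 fold changes of 0.34 and -0.51. Ank1 at day 10 gave 16, 0 and 19 counts in control and 4, 1 and 1 with miR-125b, a log2 fold change of -2.34 ± 1.13 (SE) with adjusted p = 0.293 (edgeR). The replicate block gave -2.21 ± 0.895 (SE) for Ank1 there, with adjusted p = 0.123 (edgeR). The overlapping antisense and microRNA genes at Ank1 cannot be told apart from it, because the counting is not stated to use strand.

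Transferrin receptor 1 gene Tfrc (ENSMUSG00000022797, chr16:32608920-32632794, + strand) ranged from 188 to 489 CPM and was the member that varied most with the groups. In control cells it stood at 383, 221 and 329 CPM at day 2 and at 325, 225 and 374 CPM at day 10. The miR-125b libraries stood at 388, 217 and 215 CPM and at 338, 188 and 203 CPM at these times. These 4 groups overlapped. Under the day 13 label Tfrc was at 390, 339 and 389 CPM in control and at 489, 431 and 414 CPM with miR-125b. Under the withdrawal label it was at 254, 276 and 383 CPM in control and at 405, 346 and 387 CPM with miR-125b. All miR-125b libraries labelled day 13 lay above the control libraries of that label, as was so for 8.52% of tested genes in either direction, yet the log2 fold change was 0.25 ± 0.26 (SE) with adjusted p = 0.999 (edgeR). At day 2, day 10 and labelled withdrawal it was -0.19, -0.34 and 0.32, with adjusted p-values of 1.0, 0.548 and 0.787.

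Over time in the miR-125b arm, Tfrc was higher in the libraries labelled day 13 continued than at day 10. Each same-numbered pair was higher and the groups did not overlap, which was so for 26.7% of tested genes. The log2 fold change was 0.87 ± 0.26 (SE, n = 3 per group) with adjusted p = 0.0649 (edgeR), above the threshold of 0.05 that 3.53% of genes passed. With the replicate number as a block it was 0.90 ± 0.20 (adjusted p = 0.0101, where 13.4% of genes passed), and with DESeq2 0.87 (adjusted p = 0.0155, 7.58% of genes). Control libraries gave 0.27 ± 0.26 (adjusted p = 1.0, 0.0224% of genes passed). The difference between the arms was 0.60 ± 0.36 and did not pass the test (adjusted p = 0.484, or 0.213 with the block, 0.0224% of genes passed without it), so the arms were not shown to differ. Libraries labelled withdrawal were also above day 10 in the miR-125b arm, by 0.64 ± 0.26 (adjusted p = 0.238, edgeR, 0.179% of genes passed). The groups again did not overlap (23.5% of tested genes). With the block the difference was 0.67 ± 0.20 and did not pass (adjusted p = 0.0586, edgeR, 5.33% of genes passed). No member passed there with DESeq2, where the lowest adjusted p of a member was 0.132. In control that difference was -0.02 without the block (adjusted p = 0.996, edgeR, 0.0% of genes passed).

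Withdrawal against continued doxycycline at day 13, by the labels, gave Tfrc log2 fold changes of -0.23 with miR-125b and -0.29 in control, both with adjusted p = 1.0 (0.0% of genes passed in either). The miR-125b groups did not overlap in that comparison, which held for 9.02% of tested genes. Day 10 against day 2 gave -0.17 with miR-125b (adjusted p = 0.831, 0.224% of genes passed) and -0.01 in control (adjusted p = 0.999, 0.0% passed). The comparisons of an arm at day 10 with 2 later groups share the day 10 libraries.

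**Figure D2:**
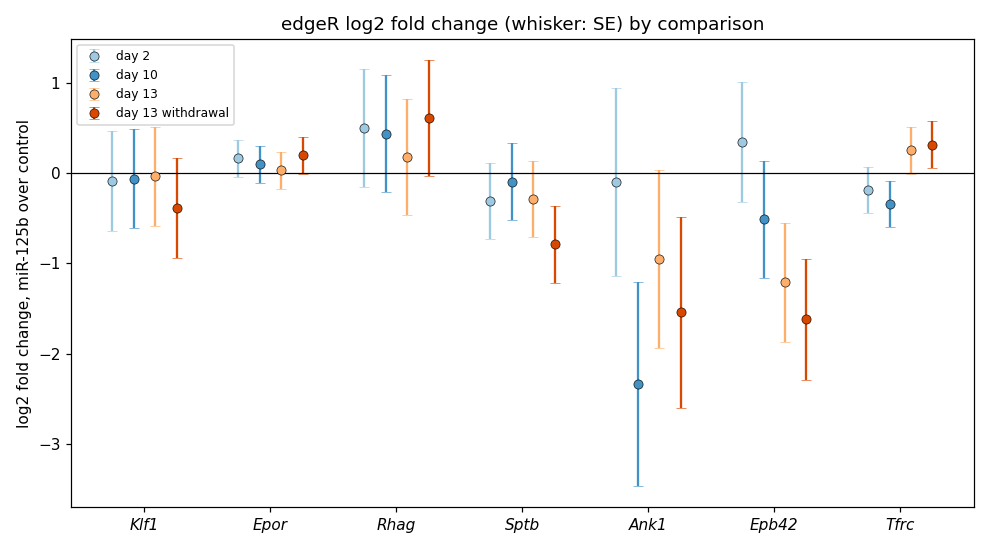
Log2 fold change of miR-125b over control (y axis) for the 7 tested genes at day 2, day 10 and the labelled day 13 and withdrawal; points are edgeR estimates and whiskers 1 SE. Rhag and Epor lie above 0 and Klf1, Sptb and Ank1 below 0 in all 4 comparisons, and none passed the test. For each of these genes the sign turned in some comparison when a single library was left out.

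Counted over the members, 0 of 7 tested genes passed in any of the 4 miR-125b comparisons with edgeR. Of all tested genes 0.0% passed at day 2, 0.872% at day 10, 0.0% at labelled day 13 and 0.119% at labelled withdrawal. The members' median log2 fold changes were -0.08, -0.09, -0.03 and -0.38, against 0.00, 0.00, -0.02 and -0.01 over all tested genes. Over all 15 comparisons, which make 105 tests of members, 0 passed with edgeR without the block, and 3 had an unadjusted p under 0.05. These were Epb42 at labelled withdrawal and Tfrc in the miR-125b arm at each day 13 label against day 10. Such a p was held by 1147 of 13419 tested genes in the first, and by 2757 (labelled continued) and 2164 (labelled withdrawal) in the others. With the block 1 passed and 11 had such an unadjusted p, which 437 to 3986 of all tested genes had per comparison. With DESeq2 1 passed and 4 had it, against 235 to 2822 of all tested genes per comparison. None of the 4 members with a seed match (Klf1, Ank1, Sptb and Tfrc) passed as lower with miR-125b in these comparisons. For the 3 comparisons between arms over time or withdrawal, 0.0%, 0.0224% and 0.0% of tested genes passed without the block.

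The larger part of the variation in several members followed the replicate number. Of the variance of log2(CPM + 0.5) of Klf1 over the 24 libraries, 81.9% lay between replicate numbers and 1.77% between the 8 groups. For Rhag the shares were 68.8% and 20.2%, for Epor 53.3% and 21.9%, and for Sptb 44.6% and 20.2%. Across all tested genes the medians were 18.4% between numbers and 36.5% between groups, and Klf1's share between numbers stood at percentile 98.7. Ank1 and Epb42 had 33.5% and 32.2% between numbers, near their shares between groups of 33.1% and 33.4%. Tfrc was the reverse of Klf1, with 21.2% between numbers and 51.2% between groups.

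**Figure D3:**
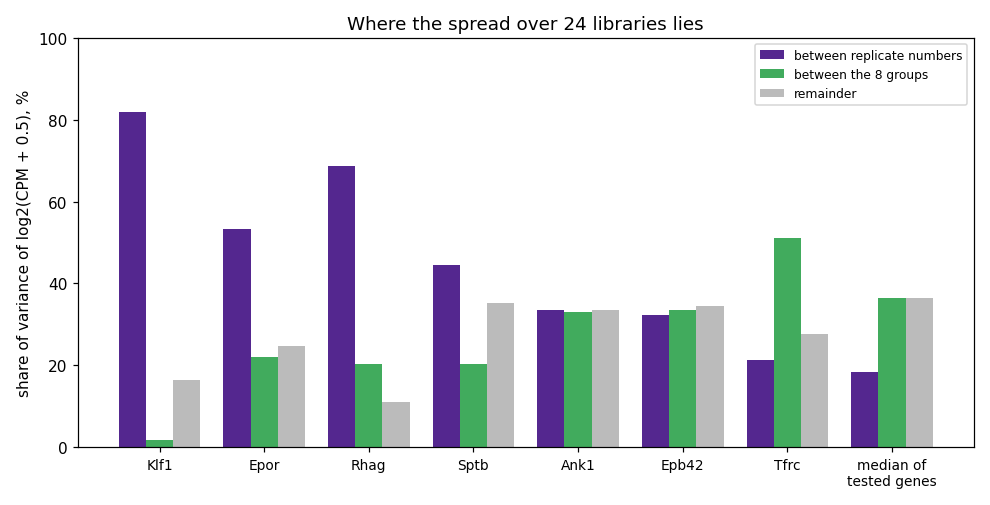
Share of the variance of log2(CPM + 0.5) over 24 libraries (y axis, percent) that lay between the 3 replicate numbers, between the 8 groups and in the remainder. The replicate number holds the largest share for Klf1, Epor, Rhag and Sptb, and the group for Tfrc.

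Libraries numbered 2 were the low ones. Klf1 ran from 22.4 to 36.5 CPM in the libraries numbered 1, from 9.6 to 16.4 CPM in number 2 and from 17.8 to 36.3 CPM in number 3, with number 2 lowest in all 8 groups. Median Rhag was 9.74, 5.52 and 17.5 CPM in the same order, also with number 2 lowest in all 8. Epor was lowest in number 2 in 7 groups, Sptb in 6, Ank1 and Tfrc in 5 each, and Epb42 in 2. Of all tested genes, 4.53% were lowest in number 2 in all 8 groups and 6.32% highest. What the numbers share is not stated in the labels.

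Markers of other cells moved with the same numbers. The summed megakaryocyte markers had medians of 3400, 6120 and 4490 CPM in the libraries numbered 1, 2 and 3, and 5 of the 10 were highest in number 2 in all 8 groups. The summed erythroid markers had medians of 181, 116 and 214 CPM, with 4 of 7 lowest in number 2 in all 8 groups. Granulocyte, mast cell and basophil markers had medians of 86.2, 158 and 67.9 CPM, and endothelial markers 6.53, 21.4 and 5.31 CPM. These sums hide members that went the other way. Of 8 tested markers in the first list 1 (Ms4a2) was highest and 1 (Prtn3) lowest in number 2 in all 8 groups, and Cpa3 was highest in 7. Of 2 tested endothelial markers Tek was highest and Kdr lowest in number 2 in all 8 groups. Their part in the level of the members was not tested. In these bulk libraries fewer cells of a type and less RNA per cell cannot be told apart.

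**Figure D4:**
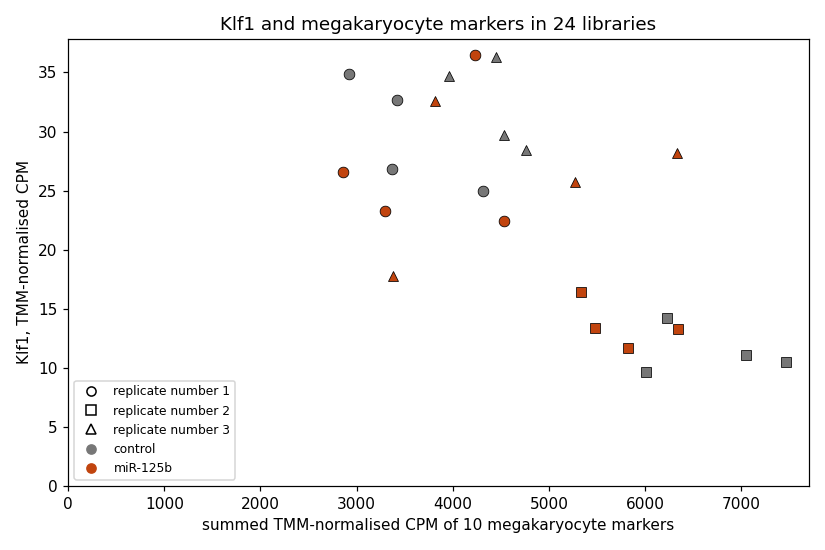
Klf1 (y axis, TMM-normalised CPM) against the summed level of 10 megakaryocyte markers (x axis, TMM-normalised CPM) in the 24 libraries; squares are replicate number 2, grey is control and red miR-125b. The 8 squares lie at 9.6 to 16.4 CPM of Klf1 and 5330 to 7470 CPM of the markers.

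The promoters of Klf1, Epor and Rhag are shown because these members were low together in the libraries numbered 2. Each runs from 250 bases before to 50 after the RefSeq start (GRCm38.p6), 5' to 3' on the gene's strand, and capitals mark motif matches. The GATA motif was searched as the word AGATAA, the word AGATAG, the word TGATAA or the word TGATAG, and the CACCC-type motif as CCNCNCCC, both on both strands and with overlapping matches counted.

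Klf1 at chr8:84901732-84902031 (+ strand): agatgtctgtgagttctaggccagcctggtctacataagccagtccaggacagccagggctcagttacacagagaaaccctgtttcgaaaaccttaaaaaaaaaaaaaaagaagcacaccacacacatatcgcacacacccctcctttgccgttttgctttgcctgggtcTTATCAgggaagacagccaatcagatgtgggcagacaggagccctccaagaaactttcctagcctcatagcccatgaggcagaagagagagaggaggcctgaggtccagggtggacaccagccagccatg
Epor at chr9:21963527-21963826 (- strand): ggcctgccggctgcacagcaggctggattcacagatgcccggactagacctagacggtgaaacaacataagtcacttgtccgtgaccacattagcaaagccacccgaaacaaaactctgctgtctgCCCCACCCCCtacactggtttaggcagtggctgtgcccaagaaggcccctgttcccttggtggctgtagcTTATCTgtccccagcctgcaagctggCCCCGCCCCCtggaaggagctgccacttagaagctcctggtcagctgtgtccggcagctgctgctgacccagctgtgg
Rhag at chr17:40810899-40811198 (+ strand): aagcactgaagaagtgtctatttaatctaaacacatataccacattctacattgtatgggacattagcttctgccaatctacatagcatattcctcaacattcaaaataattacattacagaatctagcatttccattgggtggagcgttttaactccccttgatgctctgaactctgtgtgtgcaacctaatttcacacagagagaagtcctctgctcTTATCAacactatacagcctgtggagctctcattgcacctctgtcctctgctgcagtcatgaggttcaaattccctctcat

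Each of the 3 held 1 GATA match, which began 80 bases before the start in Klf1, 54 in Epor and 31 in Rhag. Epor also held 4 overlapping CACCC-type matches in 2 places, and Klf1 and Rhag held none in this window. Promoters were matched for 6 of the 8 members, and Slc4a1 and Ank1 had no entry. Epb42 and Sptb also held a GATA match, and neither Tfrc promoter did. CACCC-type matches were also present in Sptb (3) and in the 2 overlapping Tfrc promoters (5 and 3), and absent from Epb42. The GATA motif was present in 30.2% of 27025 promoters of the same length and in 18.8% of the 9831 of tested genes. The CACCC-type motif was present in 49.1% and 68.3% of them. A match is not evidence of binding.

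Likeness over the libraries was measured by Pearson's r of log2(CPM + 0.5), with libraries sharing groups and replicate numbers. Klf1 was most like Mrpl38 (r = 0.93, Spearman's rho = 0.84, 24 libraries), Sla2 (0.92, 0.87) and Rasl11a (0.92, 0.84). Over the 16 libraries not numbered 2 these r values fell to 0.43, 0.60 and 0.58, so the likeness rested largely on the libraries numbered 2. Epor was most like Mt1, a metallothionein (r = 0.89, rho = 0.93), Ifitm3 (0.87, 0.85) and 2310009B15Rik (0.85, 0.86), and r was 0.93, 0.87 and 0.78 over the 16. Tfrc was most like Gtf2h3 (r = 0.85, rho = 0.82), Hus1 (0.84, 0.79) and Rars2 (0.84, 0.82), with 0.85, 0.81 and 0.79 over the 16. Among the members, Klf1 and Rhag had r = 0.69 over 24 libraries and -0.19 over the 16. Klf1 and Epor had 0.61 and -0.04, and Klf1 and Sptb 0.65 and 0.36. The correlations of Klf1 with Rhag and Epor were therefore present only with the libraries numbered 2 included.

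Of the other genes around the members, 4 lists were counted. The red cell membrane and skeleton list had 22 of 24 genes tested, with Dmtn and Bcam left out at a median of 0.0 CPM. It reached from the highly expressed Bsg (413 to 687 CPM), which encodes basigin, and Epb41 (204 to 307 CPM), which encodes protein 4.1, to Rhd (0.0 to 0.81 CPM). In the 4 miR-125b comparisons 0 of these 22 genes passed with edgeR without the block, and their median log2 fold changes were 0.05, 0.05, 0.01 and -0.18. With the block, genes higher at day 10 included Aqp1, a water channel (1.87, adjusted p = 0.00821), and Stom, encoding stomatin (0.81, adjusted p = 0.00174), where 8.63% of all tested genes passed. Markers of other cells moved in the same comparison. Mpo, encoding the granulocyte enzyme myeloperoxidase, was higher without the block (5.10, adjusted p = 0.015, edgeR), and higher also at labelled withdrawal (6.93, adjusted p = 0.00435). With the block 4 of 8 granulocyte, mast cell and basophil markers (Mpo, Prss34, Mcpt8 and Ctsg) and the macrophage marker Csf1r were higher at day 10. Of 10 megakaryocyte markers Gp1bb and Gp9 were lower and Ppbp higher. The summed granulocyte, mast cell and basophil markers stood at 117 to 229 CPM with miR-125b and 69.7 to 279 CPM in control at day 10. Their part in the values of the membrane genes was not tested. At labelled withdrawal Kel, a blood group gene, was lower with the block (-0.66, adjusted p = 0.026, where 1.86% passed). In that fit 4 of 10 megakaryocyte markers (Gp5, Gp1bb, Gp1ba and Gp9) were lower too. Of 7 tested erythroid markers Hba-a1 was lower (-1.55, adjusted p = 0.0325, edgeR). Higher there were 4 of 8 granulocyte, mast cell and basophil markers (Mpo, Prss34, Mcpt8 and Ctsg). The part of these markers in the values of Kel and of other list genes at labelled withdrawal was not tested. From day 10 to labelled day 13 in the miR-125b arm Bsg fell by 0.48 on the log2 scale without the block (adjusted p = 0.0392), the only one of the 22.

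The list of Klf1 targets and erythroid transcription factors had 15 of 16 genes tested, and Alas2, the erythroid heme synthesis enzyme gene, was near 0 at 0.0559 to 0.586 CPM. In the miR-125b comparisons 0 of 15 passed with edgeR without the block, and DESeq2 called 1, Cdkn1b at day 10. With the block Cdkn1b was higher (0.60, adjusted p = 0.0367) and Cbfa2t3, a corepressor gene, lower (-0.36, adjusted p = 0.0389) at day 10. At labelled withdrawal E2f2 (-0.52, adjusted p = 0.0325) and Nfe2 (-0.34, adjusted p = 0.0392) were lower with the block. In the miR-125b arm, Cdkn1b, a cell cycle inhibitor gene, was higher at day 10 than day 2 (0.86, adjusted p = 0.0419, edgeR). Of the 15 genes of erythropoietin receptor signalling 0 passed in any comparison with edgeR without the block, and DESeq2 called 1, Socs1 at day 10, while Jak2 (51.2 to 76.7 CPM), Stat5a (74.5 to 111 CPM) and Stat5b (65.1 to 117 CPM) were all expressed. With the block Socs1, a feedback inhibitor of JAK signalling, was higher at day 10 (1.03, adjusted p = 0.0243) and Sh2b3, an adaptor that restrains JAK2, lower (-0.29, adjusted p = 0.0265). Of the 15 genes of iron handling 14 were tested, and 0 passed in the 4 miR-125b comparisons with edgeR without the block or with DESeq2. Aco1 alone passed with the block, lower at labelled withdrawal (-0.45, adjusted p = 0.00871, where 1.86% of all tested genes passed). The ferroportin gene Slc40a1 was not tested, with at most 6 counts in a library.

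By replicate number, 6 of the 22 membrane genes were lowest in the libraries numbered 2 in all 8 groups (27.3%, against 4.53% of all tested genes), and 0 were highest. They included Kel, Add2, Tmod1 and Aqp1. Tmod1, a tropomodulin that caps the actin of the membrane skeleton, had medians of 16.1, 5.39 and 16.7 CPM in the libraries numbered 1, 2 and 3. Kel had medians of 64.5, 42.3 and 66.6 CPM. Of the Klf1 axis genes 3 of 15 were lowest there in all 8 groups, of iron genes 2 of 14 and of erythropoietin signalling genes 1 of 15, with 2 of the last highest. The pattern did not extend to every membrane gene, and Gypc, encoding glycophorin C, was highest in number 2 in 7 groups.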

How the data were processed

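Total RNA was purified on columns and sequenced as standard Illumina libraries, per the labels' protocols. The table deposited by the authors gives raw counts per gene, 1 column for each of 24 libraries. The submitters' processing notes name fastp, HISAT2 2.0.5, featureCounts and the build mm10; their settings, the annotation release and the strandedness are not given in the sources used here. All 24 columns were matched to libraries through the labels. Of 47069 identifiers, 46488 were matched to names in GENCODE M21 (GRCm38), which also gave coordinates, exon lengths for RPKM and 3' UTRs.

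Genes kept by filterByExpr (13419) were tested with edgeR 4.0.16 in R 4.3.3: TMM scaling (factors 0.932 to 1.04), 1 robust quasi-likelihood model for the 8 groups with 16 residual degrees of freedom, two-sided, Benjamini-Hochberg adjustment over all 13419 genes and a threshold of 0.05. CPM are TMM-normalised. Standard errors were derived from the F statistic. The 24 pairs of libraries within groups differed by 10.7 to 99.9 in chi-square per degree of freedom, so each counted as 1 replicate. Counts give precision for counting error only.

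The labels use the same replicate numbers in every group. Deviations from group means correlated at 0.163 to 0.781 (median 0.475) in all 84 same-numbered pairs of libraries, against a median of -0.304 for other pairs, so the numbers were taken to pair libraries. The main model had no block; adding it lowered the common dispersion from 0.0591 to 0.0169.

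Alternatives were the block, DESeq2 1.42.0, RLE scaling, no low-count filter, a fit to the compared groups only and leaving out each library. Leaving out the 8 libraries numbered 2, the 2 comparisons of labelled withdrawal with day 10 and likeness without number 2 were added after seeing the data. All 8 members are always named; of the lists, up to 4 genes passing in a comparison, and markers by level. The membrane genes named by replicate number and the genes given as expression ranges were chosen after their values were seen. The members and lists were chosen with earlier results of these data known. The erythroid marker and membrane lists share 2 genes. Some list genes are not reported here.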

Additional observations from a re-analysis of the deposited data

How the results depend on the processing

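With edgeR and no block, 0 members passed in any comparison, and this held with RLE scaling, no low-count filter, the compared groups only, each library left out and the 8 libraries numbered 2 left out. The count from day 10 to labelled day 13 in the miR-125b arm became 1 with the replicate block and 1 with DESeq2, in both cases Tfrc (0.90 and 0.87 on the log2 scale). The block moved that comparison's count of all genes from 474 to 1800, and that of miR-125b at day 10 from 117 to 1158. It changed no other call of a member. The directions of 35 fold changes were followed, those of the 7 members in the 4 miR-125b comparisons and 7 of Tfrc among the day 10 and day 13 groups. Under the replicate block 3 of them turned, namely Ank1 at day 2 (0.17), Klf1 at labelled day 13 (0.0132) and Tfrc at labelled withdrawal against day 10 in control (0.0109). The cause was not tested.

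Leaving out each library turned the sign in 24 of 216 values and called no member. For the 11 fold changes whose sign turned, the ranges, as log2 fold change of miR-125b over control, were -0.34 to 0.16 for Klf1, -0.0221 to 0.32 for Epor and -0.53 to 1.27 for Ank1 at day 2. At day 10 they were -0.46 to 0.28 for Klf1, -0.0177 to 0.19 for Epor, -0.10 to 1.10 for Rhag and -0.45 to 0.26 for Sptb. At labelled day 13 they were -0.38 to 0.35 for Klf1, -0.10 to 0.19 for Epor and -0.32 to 0.67 for Rhag. Tfrc at labelled withdrawal against day 10 in control ran from -0.22 to 0.14. Group means of all 64 member and group pairs moved by less than their SD with RLE scaling. Ank1, at 0 to 20 counts, and Epb42, at 4 to 83, are limited by depth. Fits to the compared groups only did not test Ank1 in every comparison.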
